A study of Rattus norvegicus with 69 samples.

Results

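The presynaptic vesicle release machinery was described in CA1 of the rat hippocampus as the genes of 14 subfamilies: the SNARE proteins and their partners, the calcium sensors and clamps, the active zone, the membrane proteins of synaptic vesicles and the exocyst. Members were taken by gene symbol (the Syt, Stx, Stxbp, Vamp, Snap, Cplx, Syn, Syngr, Exoc, Rims, Unc13 and Sv2 families, with Syp, Nsf, Napa, Bsn, Pclo, Rph3a and Rab3a to Rab3d), and the brightest probe set of a gene stood for it. Of the 4736 genes on the array with 1 symbol, 61 were members, measured by 86 probe sets. Of these, 41 had a mean signal of at least 440 and lay among the 2696 genes tested, and 20 lay under that level.

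One array per animal was hybridized with CA1 RNA of 69 male Fischer 344 rats aged 3 to 5 months, in 8 combinations of group and cohort. Home cage (HC) animals stayed in their cages, and sleep deprivation (SD) animals lived in pairs of cage mates, for 24 or 72 hours, in a chamber where inverted flower pots stood in water. Animals of the stress control (NES), exposed to the same unfamiliar chamber, spent as long there with a grid laid over the pots, so that sleep was not prevented. There were 5 HC, 8 24SD, 8 72SD, 10 24NES and 6 72NES animals in cohort 1, against 12 HC, 8 24SD and 12 72SD animals in cohort 2. Before SD, one-way active avoidance training was given to the HC and SD rats of cohort 1, and the methods do not name NES or cohort 2 rats among the trained. The paper reports that it saw no training effect on its stress and array measures, without showing the data. SD and NES shared the 5 HC arrays of cohort 1. Cage mates are not identified, and p-values take every animal as an independent sample. CA1 was dissected as tissue, so in this bulk RNA fewer cells of a type and less RNA per cell cannot be told apart. Signals are the authors' MAS5 intensities, used here as log2 values, and changes are log2 differences ± SE from a limma fit with group and cohort.

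Transmitter leaves the terminal when a synaptic vesicle fuses with the plasma membrane. A vesicle SNARE (a VAMP) zips together with syntaxin and SNAP25, complexins clamp and prime this complex, synaptotagmins trigger fusion when calcium enters, and NSF with its adaptor takes the spent complex apart. Synapsins hold the reserve of vesicles, RIM and UNC13 proteins prime vesicles at the active zone, and the exocyst tethers secretory vesicles at the membrane in many cell types. In CA1 tissue the neuronal forms come from the cell bodies of pyramidal cells and interneurons and several members are also made by glia and vessels, while many axons that end there have their cell bodies in CA3 and elsewhere.

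Several features of the arrays touch the results below. No marker of the other cell types was at 0, including CA3, dentate, glial, endothelial and choroid plexus genes. Only 45 values over all probe sets and arrays were 0, so this says little. Of the 5 CA1 and excitatory markers on the array, 4 passed the signal filter. On a scale built from the 2655 tested genes that are no members, 1 unit long from the SD mean of cohort 1 to that of cohort 2 with 0 midway, HC replicates 6 and 17 of cohort 2 lay at -0.30 and -0.19, outside the 0.17 to 0.57 of the other 10 HC arrays of that cohort. The 5 HC arrays of cohort 1 lay from -0.65 to -0.45, so both arrays stood apart from their label's cohort and nearer to the other. In cohort 1, 24NES replicates 60 and 61 lay at 0.010 and -0.032, midway between the cohorts and above the other 8 arrays of their group (-0.82 to -0.26). The GAPDH 3′/5′ ratio, a measure of RNA integrity, averaged 1.01 to 1.08 over the 8 combinations, and the β-actin ratio 1.21 to 1.40. HC replicates 6 and 17 also had the lowest β-actin ratios of the HC arrays of cohort 2 (0.99 and 1.01). 24SD replicate 32 of cohort 2 held a choroid plexus signal far above its group, and 72NES replicate 71 had the highest β-actin ratio of all arrays (1.76). Counts of members are given without the HC, 24NES and 72NES arrays named here, and the call of Exoc6 also without 24SD replicate 32.

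Promoters are shown for both complexins, for Exoc6, the 1 member with an adjusted p under 0.05 in limma at 24 hours of SD, and for Syn2 and Vamp2, members lower in SD arrays at an unadjusted p of at most 0.05. Each is the 200 bases before the transcription start, 5′ to 3′, from RefSeq on GRCr8, and capitals mark the GC box, the letters GGGCGG or their reverse complement. Snap25 is named only. The windows lie at chr14:1328873-1329072 (plus strand) for Cplx1, chr17:10236754-10236953 (minus strand) for Cplx2, chr1:244726884-244727083 (plus strand) for Exoc6, chr4:149858719-149858918 (plus strand) for Syn2, chr10:54292589-54292788 (plus strand) for Vamp2.
Cplx1: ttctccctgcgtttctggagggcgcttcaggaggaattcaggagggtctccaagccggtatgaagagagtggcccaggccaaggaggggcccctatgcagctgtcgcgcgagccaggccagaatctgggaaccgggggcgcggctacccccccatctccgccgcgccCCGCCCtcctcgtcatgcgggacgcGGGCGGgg
Cplx2: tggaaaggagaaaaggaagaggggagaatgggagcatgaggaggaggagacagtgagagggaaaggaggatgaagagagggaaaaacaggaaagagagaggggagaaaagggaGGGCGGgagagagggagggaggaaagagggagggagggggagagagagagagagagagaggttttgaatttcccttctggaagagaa
Exoc6: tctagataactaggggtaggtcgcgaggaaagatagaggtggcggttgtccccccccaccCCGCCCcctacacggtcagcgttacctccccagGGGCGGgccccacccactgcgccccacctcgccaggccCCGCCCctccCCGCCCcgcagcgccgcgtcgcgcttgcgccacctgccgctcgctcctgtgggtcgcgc
Syn2: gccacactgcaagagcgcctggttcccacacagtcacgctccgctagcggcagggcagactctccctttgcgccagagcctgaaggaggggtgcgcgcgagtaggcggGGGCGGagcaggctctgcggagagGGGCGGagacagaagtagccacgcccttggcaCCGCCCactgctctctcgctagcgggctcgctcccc
Vamp2: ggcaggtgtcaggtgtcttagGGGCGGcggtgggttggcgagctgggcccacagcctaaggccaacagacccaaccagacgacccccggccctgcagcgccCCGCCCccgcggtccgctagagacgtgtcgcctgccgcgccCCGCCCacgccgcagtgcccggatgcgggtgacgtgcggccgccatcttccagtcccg

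These windows differed in make-up. Exoc6 held 4 GC boxes, with first bases at -140, -107, -69 and -59 from the start, Syn2 and Vamp2 held 3 each, Cplx1 2 (at -33 and -8) and Cplx2 1 (at -87). The Cplx2 window is a long run of purines, while the Cplx1 and Vamp2 windows are rich in C and G. Over windows of 300 bases (250 before and 50 after the start), searched on both strands, 37 of the 50 members with a RefSeq promoter held a GC box (74%), against 34.9% of 27457 promoters and 66.2% of 2242 tested array genes. The cAMP response element TGACGTCA was in 3 of 50 (6%, against 1.91% of all promoters and 2.5% of array genes), the E-box CACGTG of clock proteins in 6 of 50 (12%, against 6.65% and 9.55%), the short glucocorticoid receptor motif AGAACA in 5 of 50 (10%, against 20.1% and 11.7%) and TTCAGCACC, the left part of the REST site, in 1, Unc13a (0.379% of all promoters and 0.535% of array genes). The median GC content was 64.7% in members, 62% in array genes and 52.3% in all promoters. A match describes letters only, and none of the other motifs was found in the 5 printed genes.

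Sleep deprivation went with lower signals of complexins, several SNAREs and vesicle proteins, at unadjusted levels of significance. Over both durations, 31 of 41 members had a negative mean change, with a median of -0.073, against 54.0% of all genes and a median of -0.0099. No member passed limma's F-test at an adjusted p under 0.05, which 0.371% of all genes did, and 9 passed at an unadjusted p of at most 0.05, all lower. Of all genes, 7.38% passed in that direction and 5.01% in the other. The 9 were the complexins Cplx1 and Cplx2, the SNAREs Snap25, Vamp1 and Vamp2, the vesicle proteins Syn2, Syngr1 and Syngr2, and the exocyst subunit Exoc6. With each array centred on its median, the split was 7 lower and 1 higher, against 3.78% and 8.38% of all genes. The 1-way ANOVA of the methods gave 14 members with its removal of values, 13 of them lower, among 21.7% of all genes, and Cplx2 and Exoc6 had an adjusted p under 0.05, as did 4.19% of all genes. Without the removal it gave 12, all lower, among 13.2% of all genes, and 0 at an adjusted p under 0.05 (0.371% of all genes). Without HC replicates 6 and 17 of cohort 2, 6 members passed (Cplx1, Cplx2, Exoc6, Snap25, Syngr1 and Syngr2) among 10.5% of all genes. Without HC replicate 11 of that cohort 14 members passed, and the share of all genes is not given here.

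At 24 hours, 14 members passed at an unadjusted p of at most 0.05, of which 13 were lower (11.6% of all genes) and 1 higher (7.60% of all genes). Exoc6 fell at an adjusted p of 0.0375 in limma and was the 1 member of 41 to pass that test, which 1.45% of all genes passed. At 72 hours, 9 members were lower (4.45% of all genes) and 1 was higher (4.04% of all genes), with 0 at an adjusted p under 0.05 in limma (0.0371% of all genes). The difference between 72 and 24 hours had an unadjusted p of at most 0.05 for 2 members, Cplx1 and Unc13a (3.41% of all genes), and an adjusted p under 0.05 for 0 members and 0% of all genes in limma. Without HC replicates 6 and 17 of cohort 2, 8 members were lower at 24 hours (8.68% of all genes) and 3 at 72 hours (2.93% of all genes), and none was higher (6.05% and 3.75%).

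Several of the unadjusted calls were lost without those 2 HC arrays. Without them the 8 members at 24 hours were Cplx1, Cplx2, Exoc6, Snap25, Syngr1, Syngr2, Vamp1 and Vamp2. The 24-hour calls lost were those of Nsf (-0.14, unadjusted p = 0.137 in limma), Unc13a (-0.13, p = 0.122), Syn2 (-0.11, p = 0.0917), Syp (-0.11, p = 0.0743) and Syt3 (-0.10, p = 0.0930), with Stx8. The 3 at 72 hours were Syn2, Syngr2 and Syt4, and the calls lost were those of Cplx2 (-0.19, unadjusted p = 0.0835 in limma), Snap25 (-0.15, p = 0.0656), Syngr1 (-0.13, p = 0.0563), Exoc6 (-0.11, p = 0.0553), Vamp1 (-0.078, p = 0.239) and Vamp2 (-0.063, p = 0.209), with Stx8.

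**Figure D1:**
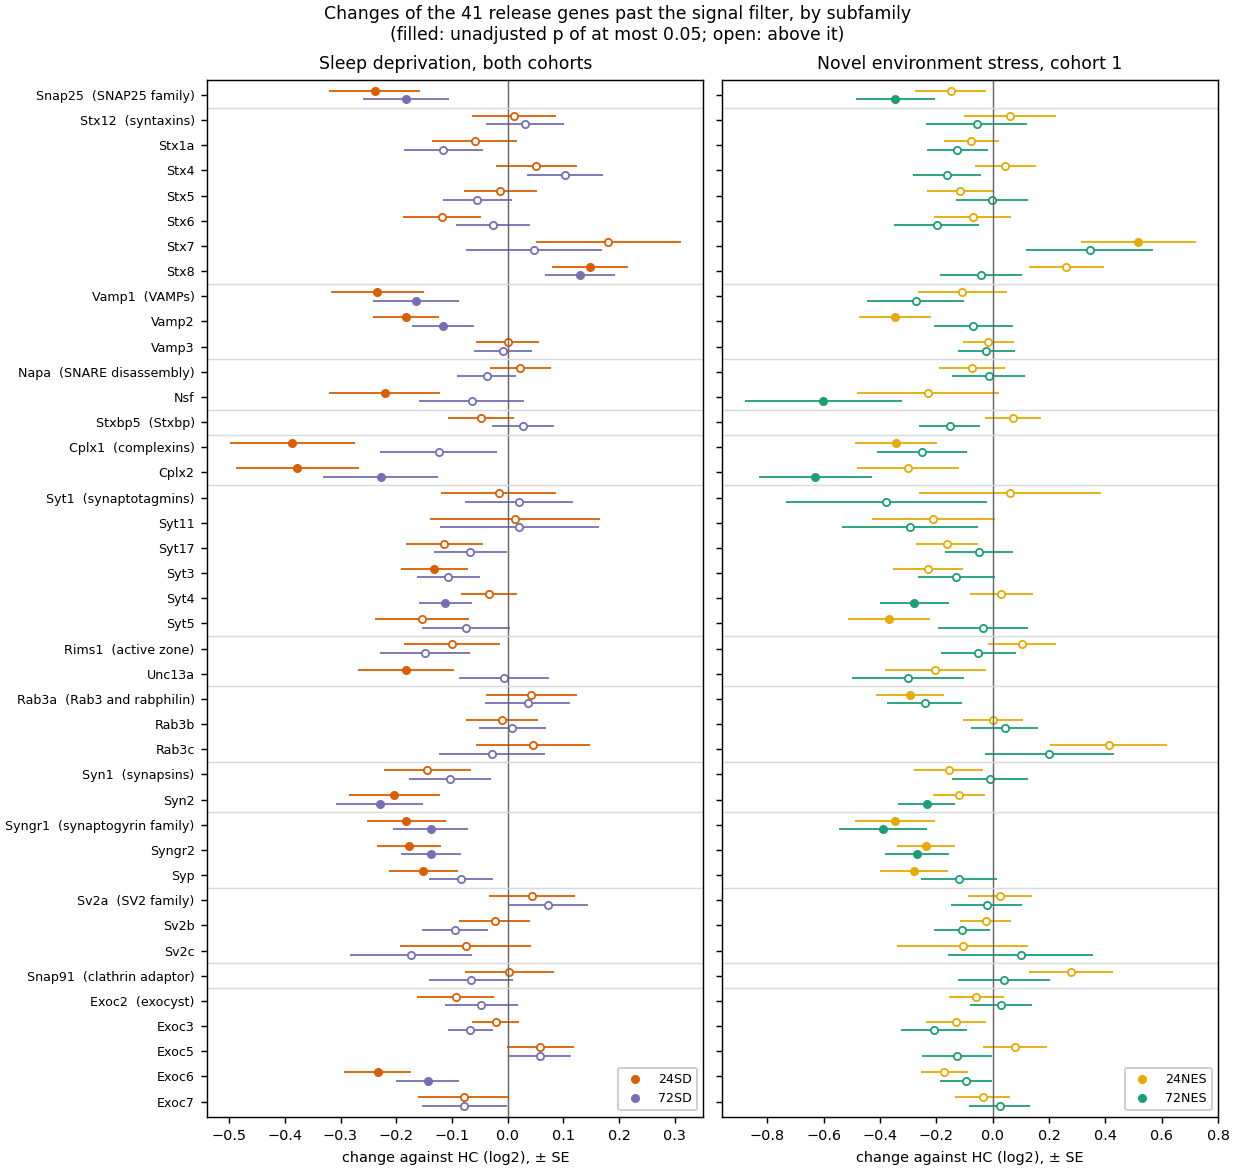
Change against HC on the log2 scale, ± SE, of the 41 release genes past the signal filter, grouped by subfamily, for SD in both cohorts (left) and NES in cohort 1 (right), at 24 and 72 hours, with filled points for an unadjusted p of at most 0.05. Complexins, Vamp1, Vamp2, synaptogyrins and Snap25 lie left of 0 at both durations of SD, while syntaxins lie on both sides of it.

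The SNARE proteins had changes of both signs. Snap25, the SNARE that lines the plasma membrane with syntaxin, had log2 signals of 14.70, 14.60, 14.78, 14.63 and 14.87 in the 5 HC arrays of cohort 1. In the 24SD arrays of that cohort it ran from 14.02 to 14.91 with a median of 14.46, and in 72SD from 14.24 to 14.80 with a median of 14.49. The middle of both SD groups lay below every HC array, although their highest arrays reached the HC range. In cohort 2 it ran from 13.95 to 14.94 (median 14.50) in HC, from 13.87 to 14.74 (14.27) in 24SD and from 13.94 to 14.49 (14.31) in 72SD, so the groups overlapped widely. Snap25 was lower by -0.24 ± 0.082 at 24 hours (adjusted p = 0.112) and -0.18 ± 0.077 at 72 hours (adjusted p = 0.494), in 13 of 16 and 15 of 20 arrays. Its 4 probe sets had mean changes of -0.22, -0.21, -0.15 and -0.12.

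Vamp2, the main vesicle SNARE of the forebrain, had signals of 14.31, 14.50, 14.42, 14.44 and 14.29 in HC of cohort 1, against 13.72 to 14.37 (median 14.15) in 24SD and 14.04 to 14.49 (median 14.29) in 72SD. Of the 8 24SD arrays, 7 lay below every HC array. In cohort 2 it ran from 13.48 to 14.20 (median 13.61) in HC, with 13.41 to 13.68 (13.59) in 24SD and 13.40 to 13.71 (13.53) in 72SD. The HC arrays of cohort 2 reached only 13.77 without replicates 6 and 17, close to the SD arrays. Vamp2 was lower by -0.18 ± 0.059 at 24 hours (adjusted p = 0.0915, all 16 arrays below the HC mean of their cohort) and by -0.12 ± 0.055 at 72 hours (adjusted p = 0.554, 14 of 20). Without those HC arrays its mean change over both durations was -0.097 (unadjusted p = 0.0510 in limma, adjusted 0.472), against -0.15 with them. The second probe set of Vamp2 was at -0.097 ± 0.067 at 24 hours (unadjusted p = 0.154 in limma) and -0.091 over both durations (p = 0.285). Vamp1, a vesicle SNARE of the same kind, was lower by -0.23 ± 0.083 and -0.17 ± 0.078 (16 of 16 and 15 of 20 arrays), and -0.11 over both durations without those arrays (adjusted p = 0.592). Vamp3, the widely expressed form, was at -0.00025 ± 0.056 and -0.0086 ± 0.052.

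Syntaxins, the plasma membrane and endosomal SNAREs, showed no common direction: 3 of 7 had a negative mean change over SD, the median was 0.021 and none had an unadjusted p of at most 0.05. Stx1a, the syntaxin of synaptic release, was at -0.06 ± 0.076 at 24 hours and -0.12 ± 0.072 at 72 hours. Its other probe set was at -0.16 ± 0.066 at 24 hours (unadjusted p = 0.0211 in limma) and -0.11 ± 0.062 at 72 hours (p = 0.0893). Stx8, a syntaxin of endosomes, was the 1 member higher at an unadjusted p of at most 0.05, with a 24-hour change of 0.15 ± 0.068 (adjusted p = 0.212) and a 72-hour change of 0.13 ± 0.063 (adjusted p = 0.574). Its HC signals in cohort 1 were 10.33, 10.37, 10.68, 10.28 and 10.37, and 2 of 16 24SD and 8 of 20 72SD arrays lay below the HC mean. Stx8 passed neither duration without HC replicates 6 and 17 of cohort 2. Its other probe set was at 0.016 ± 0.073 at 24 hours (unadjusted p = 0.823 in limma) and -0.013 ± 0.069 at 72 hours (p = 0.855). Among the partners, Nsf, the ATPase that takes SNARE complexes apart, was at -0.22 ± 0.10 at 24 hours (14 of 16 arrays lower) and -0.065 ± 0.094 at 72 hours, while its adaptor Napa was at 0.02 ± 0.056 and -0.04 ± 0.052. Stxbp5, which binds syntaxin, was at -0.05 ± 0.059 and 0.03 ± 0.056.

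Complexins, which bind the assembled SNARE complex, had the lowest median change of the 14 subfamilies, -0.28 over 2 members. Cplx1 had signals of 12.37, 12.55, 12.63, 12.81 and 12.57 in HC of cohort 1, against 11.84 to 12.49 (median 12.23) in 24SD and 12.26 to 12.73 (median 12.50) in 72SD. All 8 24SD arrays lay below the HC mean, and 72SD overlapped with HC. In cohort 2 the HC arrays ran from 10.90 to 12.77 (median 11.77), the 24SD arrays from 10.88 to 11.60 (11.51) and the 72SD arrays from 11.22 to 12.31 (11.60). Cplx1 was lower by -0.39 ± 0.11 at 24 hours (adjusted p = 0.0599, 16 of 16 arrays) and by -0.12 ± 0.11 at 72 hours (adjusted p = 0.727, 13 of 20), a difference of 0.26 ± 0.11 between the durations (adjusted p = 0.978). Without HC replicates 6 and 17 of cohort 2, the 24-hour change was -0.31 (unadjusted p = 0.00435 in limma) and the 72-hour change -0.040 (p = 0.680).

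Cplx2, the other complexin of the forebrain, had signals of 11.13, 11.21, 11.38, 10.93 and 11.22 in HC of cohort 1, against 10.03 to 11.26 (median 10.57) in 24SD and 10.48 to 11.29 (median 10.87) in 72SD. Of the 8 arrays in each SD group, 6 and 5 lay below every HC array. In cohort 2 it ran from 9.47 to 10.58 (median 10.21) in HC, with 9.57 to 10.12 (9.76) in 24SD and 9.29 to 10.21 (9.91) in 72SD. Cplx2 was lower by -0.38 ± 0.11 at 24 hours (adjusted p = 0.0599, 14 of 16 arrays) and by -0.23 ± 0.10 at 72 hours (adjusted p = 0.537, 15 of 20). Within cohorts, its mean change over both durations was -0.41 in cohort 1 (unadjusted p = 0.00875 in limma) and -0.24 in cohort 2 (p = 0.131 in limma).

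Synaptotagmins, the calcium sensors of fusion and their relatives, had a median change of -0.082 over 6 members past the filter, 4 of them negative. Syt1, the fast sensor of the forebrain, was at -0.02 ± 0.10 at 24 hours and 0.02 ± 0.097 at 72 hours. Syt4, a form without the usual calcium binding, was lower at 72 hours by -0.11 ± 0.047 (16 of 20 arrays, adjusted p = 0.494) and at -0.03 ± 0.050 at 24 hours. Syt3 was lower at 24 hours by -0.13 ± 0.060 (unadjusted p = 0.0330 in limma). Syt12 lay under the signal filter and was lower by -0.26 ± 0.079 at 24 hours (14 of 16 arrays, adjusted p = 0.103 over all genes without the filter) and at -0.02 ± 0.074 at 72 hours. At the active zone, Unc13a, which primes vesicles, was at -0.18 ± 0.086 at 24 hours and -0.0066 ± 0.081 at 72 hours, a difference of 0.18 ± 0.082, and Rims1 was at -0.10 ± 0.086 and -0.15 ± 0.081. Of the Rab3 GTPases, which mark vesicles for docking, the 3 past the filter had changes from -0.0011 for Rab3b to 0.039 for Rab3a as the mean of both durations, and Rab3d, under the filter, was at -0.15.

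Among the proteins that sit on or tie up the vesicle, Syn2, a synapsin of the reserve pool, had signals of 12.34, 12.45, 12.42, 12.36 and 12.44 in HC of cohort 1. The 24SD arrays ran from 11.97 to 12.52 (median 12.25) and the 72SD arrays from 12.13 to 12.44 (median 12.30), with 7 and 6 of 8 below every HC array. In cohort 2 the HC arrays ran from 11.14 to 12.62 (median 11.79), and the SD arrays lay inside that range at 11.49 to 11.91 (11.60) and 11.31 to 11.85 (11.52). Syn2 was lower by -0.20 ± 0.082 at 24 hours (14 of 16 arrays) and by -0.23 ± 0.077 at 72 hours (adjusted p = 0.292, 19 of 20 arrays). Without HC replicates 6 and 17 of cohort 2, the mean change of Syn2 was -0.13 (adjusted p = 0.569). Its other 2 probe sets were at -0.10 and 0.00, so the probe sets of Syn2 differ. Syn1, the other synapsin tested, was at -0.14 ± 0.078 and -0.10 ± 0.073.

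The synaptogyrins and synaptophysin, membrane-spanning proteins of the vesicle, were negative in 3 of 3. Syngr1 had signals of 11.36, 11.24, 10.97, 11.36 and 11.32 in HC of cohort 1, against 10.61 to 11.05 (median 10.94) in 24SD and 10.71 to 11.24 (median 10.94) in 72SD, and all 16 SD arrays lay below the HC mean. In cohort 2 the ranges overlapped throughout, with HC arrays from 9.87 to 10.79, 24SD arrays from 10.10 to 10.49 and 72SD arrays from 10.01 to 10.47. The mean change of Syngr1 was -0.32 in cohort 1 (unadjusted p = 0.00242 in limma) and -0.074 in cohort 2 (p = 0.661), and the difference between the cohorts had an unadjusted p of 0.144 in limma. Over both cohorts its other probe sets were at -0.075 (unadjusted p = 0.747 in limma) and -0.072 (p = 0.875), against -0.16 for the brightest. Syngr2 was lower by -0.18 ± 0.057 at 24 hours and -0.14 ± 0.054 at 72 hours (15 of 16 and 16 of 20 arrays). Syp, synaptophysin, was at -0.15 ± 0.062 and -0.08 ± 0.058. Sv2a, Sv2b and Sv2c, glycoproteins of the vesicle, had mean changes of 0.058, -0.059 and -0.12 with no unadjusted p of at most 0.05.

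Exoc6, a subunit of the exocyst that tethers vesicles before fusion, had signals of 10.98, 11.13, 10.97, 11.15 and 10.96 in HC of cohort 1. The 24SD arrays ran from 10.48 to 11.01 (median 10.76), with 7 of 8 below every HC array, and the 72SD arrays from 10.62 to 11.14 (median 10.82), with 6 of 8 below. In cohort 2 it ran from 10.34 to 11.02 (median 10.68) in HC, with 10.26 to 10.59 (10.52) in 24SD and 10.17 to 10.83 (10.59) in 72SD. Exoc6 fell by 0.23 ± 0.060 at 24 hours (adjusted p = 0.0375 in limma, 16 of 16 arrays) and was lower by -0.14 ± 0.056 at 72 hours (adjusted p = 0.428, 15 of 20). The other 4 exocyst subunits tested lay between -0.09 and 0.06 at 24 hours, and none had an unadjusted p of at most 0.05. Under the signal filter, Exoc4 was at -0.17 ± 0.082 at 24 hours (unadjusted p = 0.0423 in limma over all probe sets). Exoc8, also under it, was at -0.18 ± 0.11 (p = 0.106) and, by its other probe set, -0.20 ± 0.11 (p = 0.0696). Without HC replicates 6 and 17 of cohort 2 the change of Exoc6 was -0.20 (adjusted p = 0.101), and with the β-actin ratio in the fit it was -0.18 (adjusted p = 0.148), and the call was lost in both. It was also lost without HC replicate 1, 2, 4, 6 or 17 or 24SD replicate 32 singly, at adjusted p from 0.0520 to 0.0674. Exoc6 at 24SD was -0.27 in cohort 1 and -0.22 in cohort 2.

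**Figure D2:**
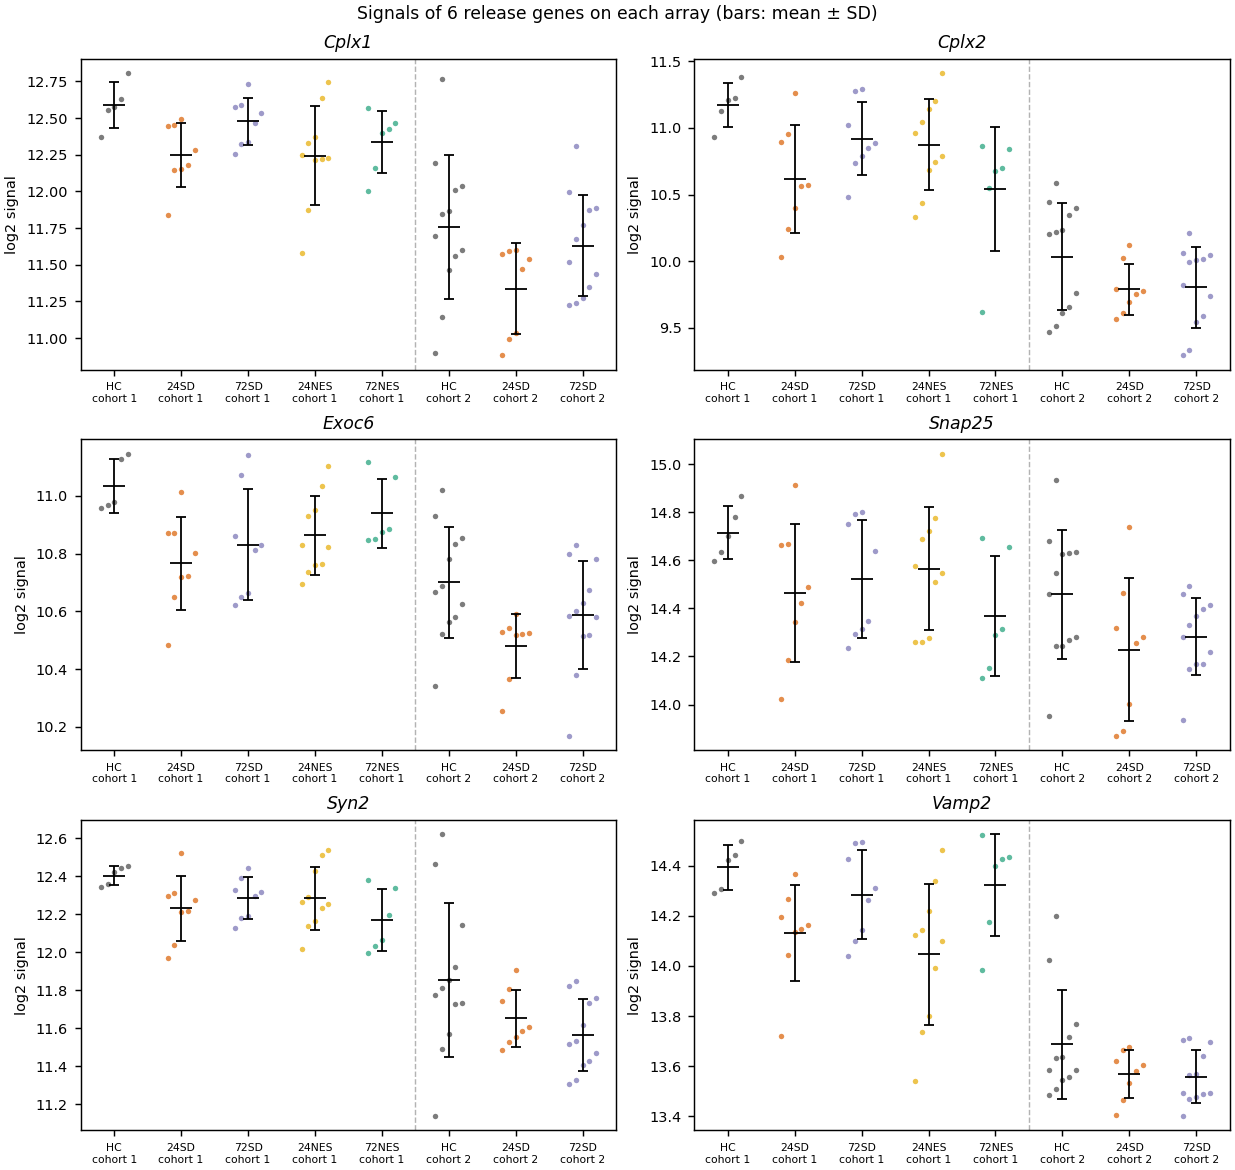
Log2 signal of Cplx1, Cplx2, Exoc6, Snap25, Syn2 and Vamp2 on each of the 69 arrays, by group and cohort, with the mean ± SD as bars and a dashed line between the cohorts. SD points of cohort 1 sit mostly below the HC points, and HC points of cohort 2 spread widely for Cplx1 and Syn2, from 10.90 to 12.77 and from 11.14 to 12.62.

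The β-actin ratio was higher on average in SD and in NES than in HC of the same cohort. The mean β-actin 3′/5′ ratio (± SD over all arrays of a group) was 1.21 ± 0.19 for HC, 1.32 ± 0.15 for 24SD and 1.23 ± 0.11 for 72SD of cohort 1, and 1.30 ± 0.20, 1.40 ± 0.15 and 1.38 ± 0.092 for the same groups of cohort 2. For NES of cohort 1 it was 1.35 ± 0.15 at 24 hours and 1.28 ± 0.29 at 72 hours. With this ratio in the fit, 5 members had an unadjusted p of at most 0.05 over SD in place of 9 (Cplx1, Cplx2, Exoc6, Syn2 and Syngr2), among 9.16% of all genes in place of 12.4%. Snap25, Vamp1, Vamp2 and Syngr1 then did not pass. At 24 hours 7 members passed in place of 14, all lower (8.05% of all genes), and at 72 hours 5 in place of 10, all lower (3.56% of all genes). Per array, the median difference of the 41 members from the HC mean of the cohort averaged -0.10 ± 0.077 (SD) for 24SD and -0.072 ± 0.058 for 72SD of cohort 1, and -0.069 ± 0.026 and -0.051 ± 0.052 for those of cohort 2. HC arrays of cohort 2 ranged from -0.25 to 0.23 on this measure, wider than the SD arrays of either cohort, and from -0.25 to 0.056 without replicates 6 and 17. The lowest of these arrays was replicate 11, with 34 of 41 members below the HC mean and the highest β-actin ratio among them (1.67). Replicates 6 and 17, at 0.23 and 0.12, had the lowest ratios (0.99 and 1.01).

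**Figure D3:**
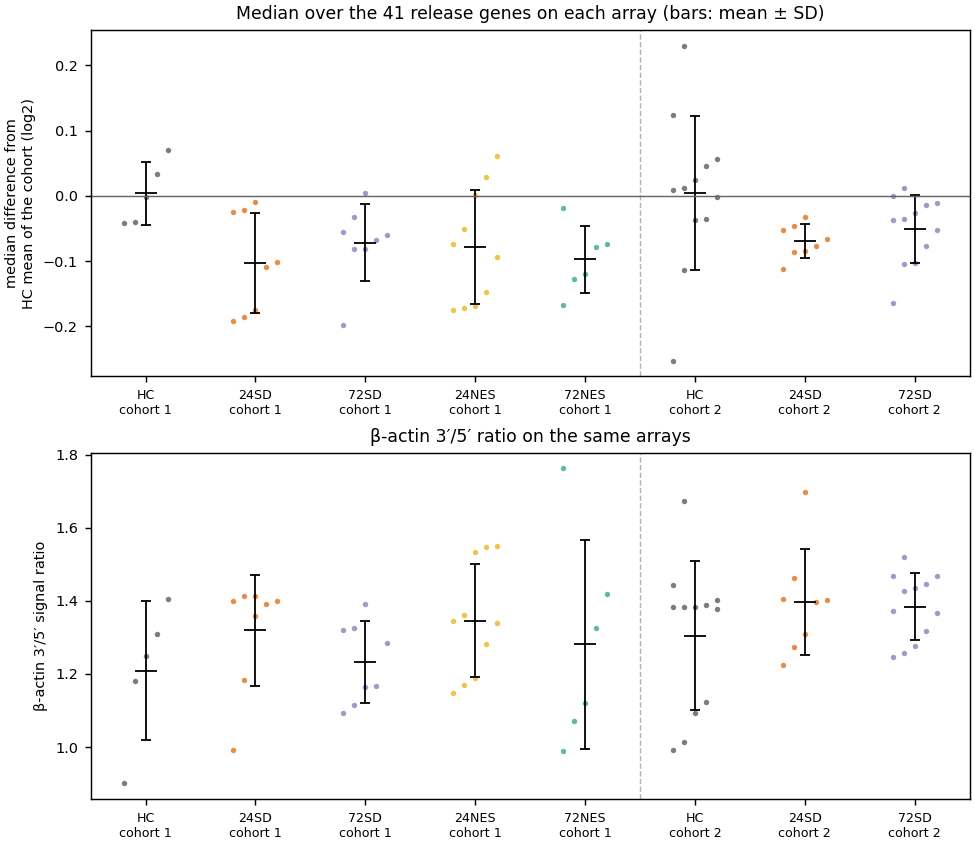
Median difference of the 41 release genes from the HC mean of the cohort (top, log2) and β-actin 3′/5′ signal ratio (bottom) on each array, by group and cohort, with the mean ± SD as bars. The 8 24SD arrays of cohort 2 all lie below 0, between -0.11 and -0.032, inside the range of their HC arrays.

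Within cohort 1 alone, 8 members were lower at an unadjusted p of at most 0.05 over SD by limma's F-test (5.19% of all genes) and 1, Snap91, was higher (5.30% of all genes). Within cohort 2 alone, 3 were lower, Exoc6, Syn2 and Snap91 (4.60% of all genes), and none higher (3.04% of all genes). The mean change of Snap91 was 0.26 in cohort 1 and -0.17 in cohort 2. The test of the difference between the cohorts passed that level for 2 members, Snap91 and Vamp3 (7.38% of all genes), and for 0 members at an adjusted p (0.185% of all genes). The split of that test, 1 lower and 1 higher, was 1 and 2 with median centring (3.45% and 3.19% of all genes) and 1 and 2 with quantile normalization (4.34% and 2.93%). Snap91, a clathrin adaptor that retrieves vesicle membrane, had HC signals of 10.62, 10.69, 10.86, 10.26 and 10.78 in cohort 1, against 10.65 to 11.13 (median 10.86) in 24SD and 10.76 to 11.15 (median 10.89) in 72SD. In cohort 2 it ran from 10.24 to 11.11 (median 10.70) in HC, with 10.30 to 10.87 (10.50) in 24SD and 10.08 to 10.67 (10.47) in 72SD. All 16 SD arrays of cohort 1 lay above the HC mean, and 12 of 12 72SD arrays of cohort 2 lay below it. The changes at 72 hours were 0.27 in cohort 1 and -0.24 in cohort 2, which differed by -0.51 ± 0.14 (adjusted p = 0.111 in limma). Without HC replicates 6 and 17 of cohort 2, Syt5 passed with Snap91 and Vamp3 did not (7.16% of all genes).

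NES, in which the animals could sleep, was compared in cohort 1 with the 5 HC arrays it shares with SD. Those HC rats were trained and the methods do not name NES rats among the trained, so stress and training cannot be told apart. Over both durations 33 of 41 members had a negative mean change, with a median of -0.11 against -0.0053 for all genes. By limma's F-test 0 members and 0% of all genes had an adjusted p under 0.05, and 6 members had an unadjusted p of at most 0.05, of which 5 were lower (5.68% of all genes) and 1 higher (5.68% of all genes). The split was 5 lower and 0 higher with median centring (5.90% and 5.23% of all genes), and 7 and 0 with quantile normalization (6.27% and 6.05%), and Stx8, the higher member, did not pass as higher under either. Its changes had opposite signs at the durations, 0.26 ± 0.13 at 24 hours (2 of 10 arrays below the HC mean) and -0.042 ± 0.15 at 72 hours (4 of 6 below). The other probe set of Stx8 had a mean change of -0.059 over NES (unadjusted p = 0.631 in limma). Lower were Cplx2 (mean change -0.47), Syngr1 (-0.37), Vamp2 (-0.21), Syt5 (-0.20), a calcium sensor of vesicles, and Syt4 (-0.12). The other probe sets of Syngr1 differed in sign, at 0.12 (unadjusted p = 0.0664 in limma) and -0.74 (p = 0.0414). Stx3, a syntaxin under the signal filter, was higher by 0.45 (unadjusted p = 0.0113 in limma without the filter). Without 24NES replicates 60 and 61, Cplx2 (-0.48) and Syt4 (-0.16) were lower (4.34% of all genes) and Stx7 was higher (4.75% of all genes). Without 72NES replicate 71, 4 were lower (5.19% of all genes) and Stx8 was higher (5.97% of all genes).

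At 24 hours of NES 8 of 41 members had an unadjusted p of at most 0.05, 7 lower and 1 higher. Of all genes, 15.1% passed in either direction, so the count of members was little above that share. Vamp2 ran from 13.54 to 14.46 (median 14.11) in 24NES and from 13.98 to 14.52 (median 14.41) in 72NES, so the 24-hour arrays lay mostly below the HC range and the 72-hour arrays mostly within it. It was lower by -0.35 ± 0.13 at 24 hours and at -0.069 ± 0.14 at 72 hours. Cplx1 ran from 11.58 to 12.75 (median 12.24) and from 12.00 to 12.57 (median 12.41), a change of -0.34 ± 0.14 and -0.25 ± 0.16. The others at 24 hours were Syngr1 (-0.35 ± 0.14), Syngr2 (-0.24 ± 0.10), Syp (-0.28 ± 0.12), Syt5 (-0.37 ± 0.14) and Rab3a (-0.29 ± 0.12), and Stx7, an endosomal syntaxin, was higher by 0.52 ± 0.20. Without 24NES replicates 60 and 61, Vamp2 (-0.25 ± 0.11) and Syt5 (-0.32 ± 0.15) were lower (5.60% of all genes) and Stx7 was higher (0.63 ± 0.20, 5.90% of all genes). Cplx1 was then at -0.21 ± 0.12, Syngr1 at -0.29 ± 0.15, Rab3a at -0.21 ± 0.11, Syngr2 at -0.19 ± 0.10 and Syp at -0.19 ± 0.11. All 3 blood markers were lower at 24 hours of NES at that level too, with a median of -0.50, and their part was not tested. Exoc6 ran from 10.70 to 11.10 (median 10.83) in 24NES, with 9 of 10 arrays below the HC mean, a change of -0.17 ± 0.084 (adjusted p = 0.333).

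At 72 hours of NES 34 of 41 members were negative, with a median of -0.12 against 0.014 for all genes. An unadjusted p of at most 0.05 was found for 7 members, all lower (5.97% of all genes in either direction). Cplx2 ran from 9.62 to 10.87 (median 10.69), with all 6 arrays below every HC array, and was lower by -0.63 ± 0.20 (adjusted p = 0.585). Snap25 ran from 14.11 to 14.69 (median 14.30), with all 6 arrays below the HC mean (-0.35 ± 0.14). Syn2 ran from 11.99 to 12.38 (median 12.13), also below the HC mean on 6 of 6 arrays (-0.23 ± 0.10). The others were Nsf (-0.60 ± 0.28), Syngr1 (-0.39 ± 0.16), Syngr2 (-0.27 ± 0.11) and Syt4 (-0.28 ± 0.12). 72NES replicate 71 was far below the other arrays of its group for Cplx2 (9.62, others from 10.55) and Nsf (10.07, others from 11.59), and it had the highest β-actin ratio of its group. Without it 2 members were lower at 72 hours, Cplx2 (-0.45 ± 0.16) and Syn2 (-0.27 ± 0.10), among 1.63% of all genes. Nsf was then at -0.28 ± 0.18, Snap25 at -0.29 ± 0.14, Syngr1 at -0.25 ± 0.13, Syngr2 at -0.23 ± 0.12 and Syt4 at -0.22 ± 0.12.

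SD was also set against NES of the same duration in cohort 1. The SD rats were trained and NES rats are not named among the trained, so sleep loss and training cannot be told apart here. At 24 hours 2 members had an unadjusted p of at most 0.05, Rab3a (0.22 ± 0.11 higher in SD) and Stx4 (-0.19 ± 0.086), among 6.08% of all genes, and 0 had an adjusted p under 0.05 in limma (0.0371% of all genes). With median centring 1 was higher (3.56% of all genes) and none lower (2.37%), and with quantile normalization none passed (5.82%). None passed without 24NES replicates 60 and 61 (4.86% of all genes), where Rab3a was at 0.14 ± 0.11 and Stx4 at -0.11 ± 0.082. For the named members the differences at 24 hours were 0.0043 ± 0.11 for Cplx1, -0.26 ± 0.16 for Cplx2, -0.10 ± 0.12 for Snap25, -0.053 ± 0.075 for Syn2, 0.08 ± 0.10 for Vamp2 and -0.10 ± 0.077 for Exoc6. At 72 hours 6 members passed the unadjusted level (7.49% of all genes), with 0 members and 0% of all genes at an adjusted p under 0.05 in limma. Nsf (0.58 ± 0.22), Syt1 (0.63 ± 0.26), Cplx2 (0.38 ± 0.18), Exoc5 and Stxbp5 were higher in SD than in NES, and Vamp3 was lower (-0.17 ± 0.080). Without 72NES replicate 71 none of these 6 passed, with Nsf at 0.26 ± 0.16, Syt1 at 0.21 ± 0.19 and Cplx2 at 0.19 ± 0.17, and Stx4 was the 1 member to pass (0.22 ± 0.10, among 4.45% of all genes).

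**Figure D4:**
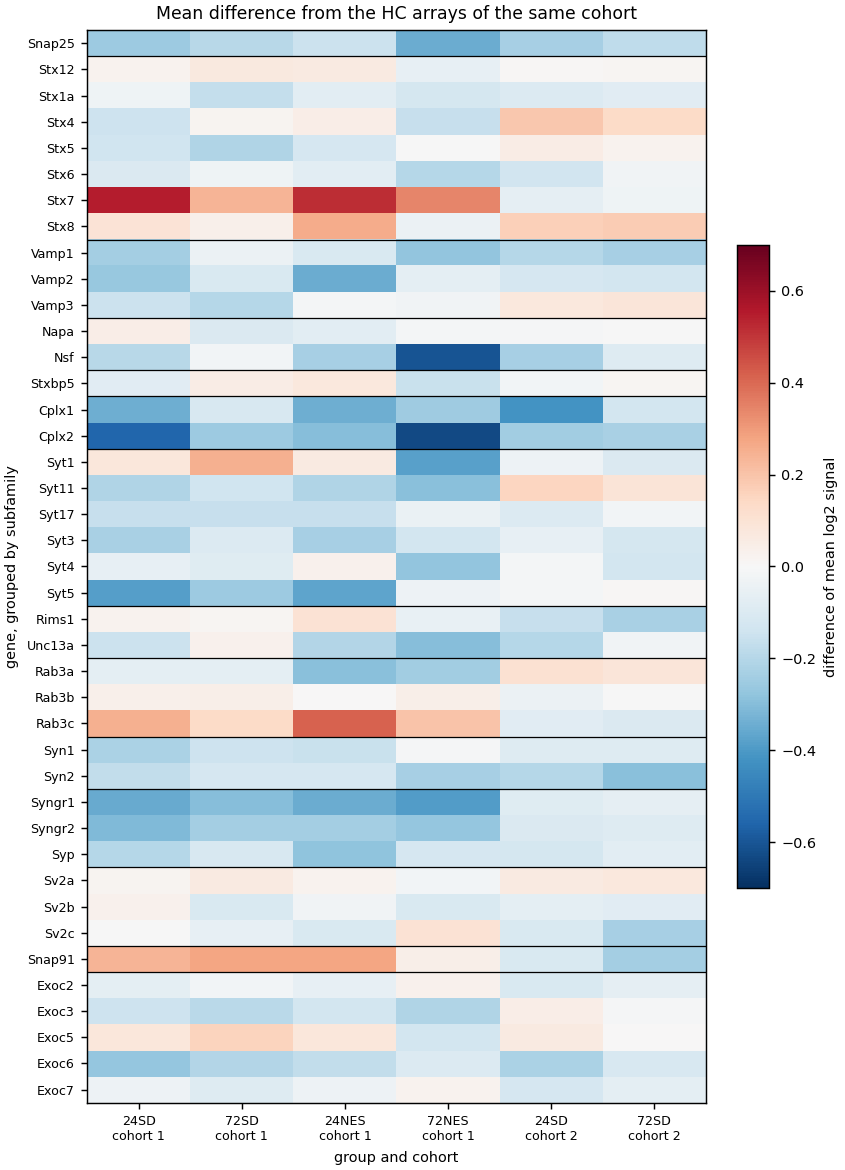
Difference of the mean log2 signal from the HC arrays of the same cohort (colour, from -0.7 in blue to 0.7 in red) for the 41 release genes, grouped by subfamily, in the 4 groups of cohort 1 and the 2 SD groups of cohort 2. Complexins and synaptogyrins are blue in all 6 columns, and Snap91 is red in SD of cohort 1 and blue in SD of cohort 2.

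More members differed between the cohorts than in any comparison of groups. With group in the fit, 34 of 41 members differed between the cohorts at an adjusted p under 0.05 in limma, as did 63.1% of all genes. Of these, 26 were lower in cohort 2 (31.8% of all genes) and 8 higher (31.3% of all genes), and the median difference was -0.28 against 0.0011 for all genes. Cplx2 was lower in cohort 2 by -1.03 ± 0.089, Cplx1 by -0.86 ± 0.090, Syn1 by -0.84 ± 0.063, Rab3a by -0.78 ± 0.066, Syngr1 by -0.74 ± 0.058, Vamp2 by -0.67 ± 0.047, Rims1 by -0.67 ± 0.069 and Syn2 by -0.63 ± 0.067. Complexins, synapsins, synaptogyrins with synaptophysin, the SV2 family and both active zone genes were lower in every member tested, as were 4 of 6 synaptotagmins. Of 7 syntaxins 4 went the other way: Stx4 (0.36 ± 0.058), Stx7 (0.29 ± 0.11), Stx12 (0.23 ± 0.061) and Stx5 (0.15 ± 0.053), syntaxins of the plasma membrane, endosomes and Golgi, were higher in cohort 2, while Stx1a, the synaptic form, was lower by -0.50 ± 0.062. Vamp3 (0.33 ± 0.045), Exoc5, Rab3b and Rab3c were higher too.

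With the HC arrays alone, 22 members differed between the cohorts at an adjusted p under 0.05 in limma, among 29.7% of all genes, and without HC replicates 6 and 17 of cohort 2, 34 did, among 64.2%. Markers of other cell types moved with cohort as well: all 3 CA3 markers tested were lower in cohort 2 (median -0.62), 5 of 9 general neuronal markers were lower and 2 higher (median -0.19), and all 3 microglial and 5 of 7 astrocyte markers were higher. Cohort differences of the other marker lists are not given here. Of all genes, 63.1% differed between the cohorts at an adjusted p under 0.05 in limma. The summed signal of the CA3 markers ran from 7017 to 9730 in HC of cohort 1 and from 5915 to 11011 in HC of cohort 2, with medians of 9248 and 6554. In cohort 1 that sum ran from 8738 to 12678 in 24SD and from 9769 to 13522 in 24NES, the latter above all 5 HC arrays. The part of these markers in the differences of the release genes was not tested. Cohort and training cannot be told apart, and the methods describe a lower background signal in cohort 2.

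Among arrays of the same group and cohort, some of the 5 named release genes varied together. Over 69 arrays, deviations from the mean of the group and cohort correlated for 3 of 10 pairs at an adjusted p under 0.05 in a two-sided permutation test within groups. Cplx1 and Vamp2 had r = 0.43 and rho = 0.34 (permutation p = 0.00088 and 0.00477, adjusted p = 0.0044 and 0.0239), Cplx2 and Snap25 r = 0.43 and rho = 0.42 (permutation p = 0.00065 and 0.00068, adjusted p = 0.0044 and 0.0068), and Snap25 and Syn2 r = 0.33 and rho = 0.24 (permutation p = 0.0107 and 0.0623, adjusted p = 0.0358 and 0.140). Without the 2 arrays farthest from the median, r was 0.35, 0.40 and 0.24. Within cohort 1 r was 0.59, 0.59 and 0.20, and within cohort 2 it was 0.35, 0.24 and 0.43, none of them past the adjusted level in cohort 2. Without the 2 arrays farthest from the median of their cohort, r was 0.57, 0.57 and 0.26 in cohort 1. In cohort 2 it was then 0.061, 0.0021 and 0.29. The other 7 pairs ran from -0.15 to 0.28. These genes share each array's scaling and RNA.

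Other genes of the release cycle were read from lists of genes that are no members, with the same F-test over SD. Of 14 calcium channel subunits and active zone partners, 3 had an unadjusted p of at most 0.05, all lower: Nrxn3, a presynaptic neurexin (mean change -0.18), Cacnb1 (-0.19) and Cacna1a, the pore of the P/Q-type channel (-0.19). Of 10 genes of vesicle filling 3 were lower, Atp6v1b2 and Atp6ap1 of the proton pump (-0.14 and -0.15) and Slc32a1, the GABA transporter of vesicles (-0.14). Of 20 genes of endocytosis and recycling 2 were lower, Sh3gl2, endophilin (-0.21), and Dnm1, dynamin (-0.13), and of 10 SNARE regulators 1, Ncs1 (-0.17). Of all genes, 7.38% were lower and 5.01% higher at an unadjusted p of at most 0.05, and 0.371% had an adjusted p under 0.05 in limma. No gene of these lists was higher at the unadjusted level, and 0 had an adjusted p under 0.05 in limma. The medians were -0.069, -0.035, -0.0061 and -0.036.

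For comparison, 19 postsynaptic genes had 1 lower and 1 higher (Grin2d -0.18, Dlg4 0.29), against 7.38% and 5.01% of all genes, with a median of -0.018. None of the 9 general neuronal, 4 CA1 and excitatory, 3 CA3, 7 astrocyte, 7 oligodendrocyte, 3 microglial, 3 endothelial, 3 choroid plexus and 3 blood markers tested had an unadjusted p of at most 0.05 over SD by limma's F-test, and none had an adjusted one under 0.05. Blood markers moved in opposite directions in the cohorts. At an unadjusted p of at most 0.05 over SD, 2 of 3 were lower in cohort 1 alone (5.19% of all genes), with a median of -0.45. In cohort 2 alone 2 of 3 were higher (3.04% of all genes), with a median of 0.28. Their summed signal in cohort 1 ran from 15078 to 17590 in HC, from 7664 to 15475 in 24SD and from 7317 to 14577 in 72SD, every 72SD array below every HC array. In cohort 2 it ran from 9088 to 17175 (median 11646) in HC, from 11867 to 18707 (17251) in 24SD and from 9707 to 17277 (15758) in 72SD. Of the 3 CA3 markers 2 were higher over SD in cohort 1 alone (5.30% of all genes), with a median of 0.21, and none passed in cohort 2 alone. The part of these markers in the changes of the release genes was not tested. Of 10 interneuron markers 2 were higher (Vip 0.24, Pvalb 0.18) and 1 lower (Slc32a1), and of 3 dentate markers Neurod1 was higher (0.27). The summed general neuronal signal of cohort 1 had a range of 118439 to 136976 for HC, 118078 to 134666 for 24SD and 111909 to 133905 for 72SD. For cohort 2 the ranges were 97912.5 to 130119, 95597 to 117408 and 99295.5 to 118526. The choroid plexus sum reached 33728 on 24SD replicate 32 of cohort 2, against a median of 3777 in that group.

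Of the 20 members under the signal filter, 12 had a negative mean change over SD. Their signals were low, and Stx3 had a median log2 signal of 5.10 in HC of cohort 1 and Stxbp2 of 6.20. Rab3d, which had the smallest p of the Rab3 genes, had changes of -0.12 ± 0.12 and -0.18 ± 0.11 at the 2 durations, and Stxbp2 of -0.44 ± 0.27 and -0.25 ± 0.25. Over all 61 members fitted without the filter, 10 had an unadjusted p of at most 0.05 in limma, all lower (6.78% of all 4736 genes) and Syt12 among them, and 0 an adjusted one under 0.05 (0.127%). Of 20 member genes with more than 1 probe set, 15 had 1 sign in all of them, and Rab3b, Snap23, Stx12, Syn2 and Vamp5 did not.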

How the data were processed

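CA1 RNA of 69 rats was hybridized to an Affymetrix rat array, 1 array per animal. The deposited values are intensity values of 8799 probe sets, made by the authors with MAS5 on a linear scale and not log transformed, with array medians of 400.5 to 484.9. Of the probe sets 59 were controls, 7006 had 1 gene symbol and 308 had several. Values under 1 were set to 1 (45 were 0, none in a member) and log2 was taken. The brightest probe set stood for a gene, and the upper 50% of probe set signals was tested.

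Groups came from the sample labels. limma 3.58.1 in R 4.3.3 fitted group and cohort to the 53 HC and SD arrays, and group alone to the 21 HC and NES arrays and the 37 arrays of cohort 1, with Benjamini-Hochberg adjustment over 2696 genes and a threshold of 0.05. "SD" and "NES" are F-tests over both durations, whose change is the mean of the 2. Correlations used 100000 permutations within groups (Python 3.11.15, numpy 2.4.6, pandas 2.3.3, scipy 1.17.1), and figures matplotlib 3.10.9. The members and lists were chosen with earlier results of these data known. By rule, the members named were the 5 marker genes (Snap25, Syn2, Cplx1, Cplx2 and Vamp2), members with an adjusted p under 0.05 in a comparison of groups, members with an unadjusted p of at most 0.05 in either F-test, and the member of each subfamily with the smallest SD p. Of other lists, up to 3 genes with the smallest SD p were named. Other members named for their role or for 1 contrast (such as Syt1, Stx1a, Rims1, Rab3a and Vamp3) were chosen after their values were seen. In simulated data, 51% of changes of 0.25 and 96% of 0.5 (log2) were recovered for SD with 4.55% false calls, and 7% and 60% for NES with 5.63%, on 2696 genes. Noise there was drawn independently for each gene and array, without effects shared by the genes of an array. The changed genes had the same change at both durations. These shares therefore need not hold for the real arrays. The number of arrays limits the precision. Alternatives were median centring, quantile normalization, other filters and floors, 1 cohort alone, no cohort term, RNA integrity ratios, the ANOVA of the methods and leaving out arrays.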

Additional observations from a re-analysis of the deposited data

Results flagged for a closer look

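In groups of 4 to 10 arrays, 1 array lay far from all others of its group in 5 of the 120 groups of named members examined, where chance gives about 6. Cplx2 was at 9.62 (log2 signal) on 72NES replicate 71, against 10.55 to 10.87 on the others, and Nsf was at 10.07 on the same array, against 11.59 to 12.28. Stx3, under the signal filter, was at 7.32 on 24NES replicate 63, against 5.21 to 6.10. Stx8 was at 10.68 on HC replicate 3 of cohort 1, against 10.28 to 10.37. Sv2b was at 14.22 on 24SD replicate 30 of cohort 2, against 13.79 to 13.99. The cause was not tested for any of them.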

How the results depend on the processing

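Counts are members at an unadjusted p of at most 0.05, and the share of all genes at that level is in brackets for some settings. The β-actin ratio, the HC arrays of cohort 2 left out singly and together, 24SD replicate 32 left out, 24NES replicates 60 and 61 left out, and all settings for Exoc6 were chosen after seeing the data. For SD (9 members) the count was 5 with the β-actin ratio (9.16% of all genes) and 3 in cohort 2 alone (4.60% lower and 3.04% higher). It was 1 with the cohort left out and 14 by the methods' ANOVA when far values were removed (21.7%). Single arrays left out were the HC arrays, 24SD replicates 30 and 32 and 72NES replicate 71, and no others. Over the HC and 24SD arrays among them the SD count ran from 8 to 14, 14 without HC replicate 11. For 24SD (14) it was 7 with the β-actin ratio (8.05% of all genes lower), 3 in cohort 2 alone and 3 with the cohort left out. It was 8 without HC replicates 6 and 17 of cohort 2 (8.68% lower). For 72SD (10) it was 5 with the β-actin ratio (3.56% of all genes lower), 6 in either cohort alone, 2 with the cohort left out and 6 with median centring. It was 3 without both HC arrays (2.93% lower), and 6 to 12 over the same single arrays, 6 without HC replicate 6 or 17. For 72SD against 24SD (2) it was 1 with the β-actin ratio or median centring and 0 in cohort 2 alone or with the cohort left out. For 24SD against 24NES (2) it was 1 with median centring (2.37% lower and 3.56% higher), 0 with quantile normalization (5.82%) and 1 with the upper 40% of signals. It was 0 without 24NES replicates 60 and 61 (4.86%). For 72SD against 72NES (6) it was 3 with the GAPDH ratio. It was 1 to 6 over the HC arrays of cohort 1 and 72NES replicate 71 left out singly, 1 without that 72NES array (4.45%). For SD by cohort (2) it was 1 with the GAPDH ratio. It was 1 to 3 over the HC arrays of cohort 1 and 24SD replicates 30 and 32 left out singly, 1 without HC replicate 2 or 3. For NES (6) it was 3 without 24NES replicates 60 and 61 (4.34% lower and 4.75% higher) and within 1.5 times under the other alternatives run. For the cohort difference (35) it stayed within 1.5 times, at 27 with the HC arrays alone, while the count at an adjusted p under 0.05 was 34, and 22 with the HC arrays alone.

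The change of Exoc6 at 24SD kept its sign but missed an adjusted p of 0.05 in limma with the β-actin ratio (-0.18, adjusted p = 0.148), in cohort 1 (-0.27, 0.205) and cohort 2 alone (-0.22, 0.299), with the cohort left out (-0.17, 0.484), with median centring (-0.20, 0.0828), with no filter (-0.23, 0.0594) and without HC replicates 6 and 17 (-0.20, 0.101). Over the HC arrays and 24SD replicates 30 and 32 left out singly, the change of Exoc6 ran from -0.25 to -0.22. Adjusted p then ran from 0.0137 to 0.0674, above 0.05 without HC replicate 1, 2, 4, 6 or 17 or 24SD replicate 32 (0.0563). The SD change of Snap91 turned positive with the β-actin ratio (0.0039), in cohort 1 alone (0.26), with the cohort left out (0.012) and without both HC arrays (0.031). Correlations turned for Cplx1 with Syn2 (-0.16) and Cplx2 with Syn2 (-0.13) in cohort 1, and for Snap25 with Vamp2 (0.036) with median centring. They missed the adjusted level for Cplx1 with Vamp2 (0.35) and Cplx2 with Snap25 (0.24) in cohort 2 and for Snap25 with Syn2 in cohort 1 (0.20) and cohort 2 (0.43), and passed it for Syn2 with Vamp2 (0.37) with median centring. No paired analysis was possible because each animal has its own number and the groups share none. The cause was not tested for any of these changes.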
